A study of Mus musculus with 18 samples.

Results

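The comparison described here is the switch from no human DUX4 to induced human DUX4 in mouse myoblasts. It rests on 6 of the 18 RNA-seq libraries of the series: 3 libraries of a C2C12 line carrying a doxycycline-inducible human DUX4 transgene after 36 h with 2 µg/ml doxycycline, and 3 libraries of the same line harvested at 36 h without doxycycline. The members are all 24028 genes of the deposited table, of which 13602 had enough counts to be tested. C2C12 is an established line of mouse skeletal muscle precursor cells that proliferates in rich medium and can fuse into myotubes when serum is withdrawn. The transgene is codon-altered, labelled "HDUX4 codon-altered", and its own reads were not analysed here, so the amount of DUX4 in each library is not known from these counts. The inducible cells are 1 clonal line, and each library comes from a separate culture of that clone, so the spread between libraries is the spread between cultures and not between clones. The control for the drug and for an induced foreign protein is a clonal C2C12 line with inducible firefly luciferase, also 3 libraries with and 3 without doxycycline for 36 h. A clonal line with codon-altered mouse Dux ("mDUX" in the labels), with the same 3 and 3 libraries, completes the series. All cells grew in puromycin to keep the transgene.

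DUX4 is a transcription factor with a pair of homeodomains that is normally active in the cleavage-stage human embryo, where it opens the first zygotic gene programme. Its misexpression in skeletal muscle causes facioscapulohumeral muscular dystrophy, and in cultured muscle cells it is known for toxicity and for turning on germline and early-embryo genes. Mouse Dux has the equivalent role in the mouse embryo. The comparison asks which mouse genes respond when the human factor is placed in a mouse muscle cell, and how far that response goes beyond what doxycycline and a luciferase transgene do.

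Total counts ran from 12871469 to 15743008 in the 6 human DUX4 libraries and from 11010586 to 17179642 over all 18. No 2 libraries held the same values, and replicate libraries of the DUX4 and luciferase lines differed from each other by a chi-square per degree of freedom of 1.34 to 2.79, close to counting noise. Libraries of replicate 1 of the mouse Dux line stood apart from replicates 2 and 3, with up to 36.4 on the same measure. All lines share the estimate of spread, so this also enters the p-values of the DUX4 and luciferase comparisons. Without both of these libraries 4884 genes were called higher and 5218 lower with DUX4, against 4683 and 4508 with them. The uninduced DUX4 and luciferase clones themselves differed in 9923 genes at an adjusted p below 0.05, 1809 of them by 4-fold or more. Induction and clone are therefore separated only by testing whether the change within the DUX4 clone differs from the change within the luciferase clone, and that test is given where both lines are compared. Other changes are changes within the DUX4 clone. In bulk RNA, fewer cells of a kind and less RNA per cell cannot be told apart.

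The uninduced cells carried myoblast markers, some at low levels. Desmin (Des, the muscle intermediate filament) was at 213 ± 6.62 CPM, where CPM is the count relative to a TMM-scaled library total and every ± is the SD over 3 libraries, Cdh15 (M-cadherin) at 131 ± 6.67 and Itga7 (the laminin-binding integrin of muscle) at 109 ± 3.14 CPM. Myod1, the master regulator of the muscle lineage, was at 26.5, 25.8 and 26.5 CPM in the uninduced DUX4 libraries against 199, 196 and 192 CPM in the uninduced luciferase libraries. Myogenin (Myog), which marks cells that have begun to differentiate, was at 1.24 ± 0.317 CPM. With DUX4, Des fell to 76.3 ± 4.95 CPM, Cdh15 to 43.5 ± 1.78 CPM and Itga7 to 43.7 ± 1.69 CPM. Myf5, another myoblast marker, went the other way and rose at an adjusted p below 0.05. That call was lost without induced replicate 1 (log2 fold change 0.31) or induced replicate 3 (0.23).

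The promoter sequences were read for the letters that known regulators recognise, and a few stretches are shown because the groups of genes they come from carried the clearest changes. Windows of 300 bases, 250 before and 50 after a RefSeq start site of GRCm38.p6, were found for 10773 of the tested genes (79.2%). For 2151 genes with more than 1 start listed, the most upstream was used. A match is a description of letters and not a binding site. The 11-letter DUX4 consensus, searched on both strands, lay in none of 438 windows of genes that rose 4-fold or more, in none of 375 windows of genes that fell 4-fold or more, and in 5 of all 10773 windows (0.0464%). The shorter form CNAATCA, which overlaps the CCAAT box when its second letter is C, lay in 11.6% of the windows of strongly higher genes, in 19.7% of those of strongly lower genes and in 14.4% of all windows. The E-box CAGCTG, the palindrome that myogenic factors recognise, lay in 20.1%, 19.2% and 15.1% of the same windows. TTTGAA, the core of the cell cycle homology region of genes expressed in mitosis, lay in 39 of 57 windows of the mitosis list (68.4%), against 12% of all windows. TTTNGCGC, an E2F recognition form found in replication genes, lay in 12 of 50 windows of the S-phase list (24.0%), against 2.5% of all windows. These motifs were searched on both strands, and a match on the opposite strand is printed as its reverse complement.

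The following stretches are from RefSeq GRCm38.p6, each written 5′ to 3′ on the strand of its gene with the match in capitals. The first 3 are from mitotic genes and hold TTTGAA or its reverse complement: Cdk1 at chr10:69352913-69352957 (minus strand), Cdc20 at chr4:118437344-118437391 (minus strand) and Kif11 at chr19:37376333-37376381 (plus strand). In all 3 the match ends between 10 and 14 bases before the start site.
Cdk1: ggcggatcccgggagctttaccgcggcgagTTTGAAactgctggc
Cdc20: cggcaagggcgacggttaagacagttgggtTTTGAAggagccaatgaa
Kif11: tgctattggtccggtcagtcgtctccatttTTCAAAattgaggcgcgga
The next 3 are from genes of the replication origin and hold the E2F form: Mcm5 at chr8:75109330-75109397 (plus strand), Mcm6 at chr1:128359715-128359782 (minus strand) and Orc1 at chr4:108579397-108579453 (plus strand).
Mcm5: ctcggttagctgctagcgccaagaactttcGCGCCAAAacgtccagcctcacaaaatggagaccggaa
Mcm6: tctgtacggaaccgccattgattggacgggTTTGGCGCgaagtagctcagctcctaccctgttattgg
Orc1: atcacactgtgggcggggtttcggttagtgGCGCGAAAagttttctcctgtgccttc
The last 3 are from genes that rose strongly and hold CNAATCA in the form that is also a CCAAT box: Ctsq at chr13:61040662-61040728 (minus strand), Il6 at chr5:30012978-30013044 (plus strand) and Cd68 at chr11:69666218-69666284 (minus strand).
Ctsq: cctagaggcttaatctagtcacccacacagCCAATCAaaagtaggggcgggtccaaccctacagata
Il6: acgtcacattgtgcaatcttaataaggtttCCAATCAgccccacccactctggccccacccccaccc
Cd68: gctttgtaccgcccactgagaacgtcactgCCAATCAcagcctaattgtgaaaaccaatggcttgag

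Inducing human DUX4 changed most of the transcriptome measured. At an adjusted p below 0.05 (edgeR quasi-likelihood test, Benjamini-Hochberg over all 13602 genes), 34.4% of tested genes rose and 33.1% fell. Most changes were small: 75.2% of genes stayed within 2-fold, and the median absolute log2 fold change was 0.48, against 0.17 in the luciferase line. In the luciferase line 14.7% of genes rose and 16.4% fell with doxycycline. These shares are the background for the counts of risers and fallers in each gene list below. Strong changes, of 4-fold or more, were 4.36% higher and 3.83% lower genes with DUX4, in numbers 593 and 521, against 36 and 134 with luciferase. The direct test found the DUX4 response higher than the luciferase response in 28.3% of genes and lower in 26.7%. Of the 593 strongly higher genes, 436 passed that test as higher, 93 also rose in the luciferase line, and 123 had 3 or fewer counts in the 6 luciferase libraries together. Of the 521 strongly lower genes, 375 passed it as lower and 255 also fell in the luciferase line. Both sets were picked by their change with DUX4, which is a term of that test, so its direction in them is largely set by the choice.

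The uninduced levels of strongly higher and strongly lower genes are partly set by the selection. A gene with few uninduced counts can rise 4-fold more readily than it can be called 4-fold lower. The shares of all tested genes at these levels were not counted. Among the strongly higher genes, 370 were below 1 CPM in the uninduced cells and 95 were at 10 CPM or more. Among the strongly lower genes, 272 were at 10 CPM or more before induction, 72 of them at 100 CPM or more, and 117 were below 1 CPM. For 44 genes no count was found in any of the 3 uninduced libraries and at least 30 counts in the induced ones together, and 2 genes showed the reverse, Csf2rb2 and 2610528A11Rik, with 33 and 37 uninduced counts.

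The 5 marker genes separated the groups in every library, as the plot of marker levels by library shows. Tmem92, a transmembrane protein gene at chromosome 11:94777217-94782703, was at 0.0626, 0.192 and 0.151 CPM without and at 109, 105 and 111 CPM with DUX4. The luciferase libraries were at 0.119 to 0.276 CPM in both groups, and the DUX4 response exceeded theirs by 10.27 on the log2 scale (SE 0.70, adjusted p 2.5e-10). Uts2, which encodes the vasoactive peptide urotensin-2, at 4:150997097-151001810, was at 0.1251, 0.256 and 0.151 CPM without and 78.2, 77.8 and 75.1 CPM with DUX4. No luciferase library held a Uts2 count, so the difference between both responses could not be fitted there.

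Cdkn1a, the p21 inhibitor of cyclin-dependent kinases (17:29090979-29100722), was at 134, 128 and 133 CPM without and 880, 823 and 839 CPM with DUX4. The uninduced luciferase libraries were already at 475, 464 and 484 CPM and the induced ones at 513, 474 and 479 CPM, between both DUX4 groups. Spp1, the secreted matrix and cytokine-like protein osteopontin (5:104435111-104441053), was at 1124, 1121 and 1088 CPM without and 44.3, 47.7 and 42.3 CPM with DUX4. In the luciferase line Spp1 rose with doxycycline, from 1021, 1010 and 1017 to 1346, 1240 and 1271 CPM. Myod1 (7:46376474-46379092) was at 4.45, 3.89 and 2.68 CPM with DUX4, a log2 fold change of -2.84 (SE 0.12), and at 146, 155 and 148 CPM in the induced luciferase libraries. No value of an induced DUX4 library overlapped with an uninduced one for any of the 5 genes. Of all tested genes 67.6% were called changed, and the share of them without such overlap was not counted. The separation therefore cannot be called particular to these 5 genes.

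**Figure D1:**
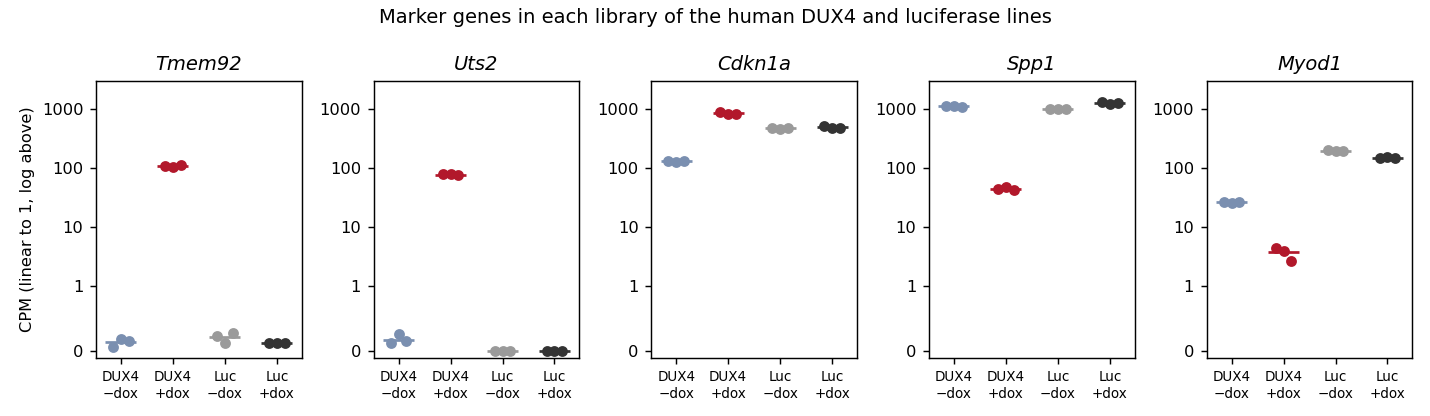
CPM of Tmem92, Uts2, Cdkn1a, Spp1 and Myod1 in each library (points; bars are means of 3) of the human DUX4 line and the luciferase line, without and with doxycycline, on an axis that is linear to 1 and logarithmic above. The induced DUX4 libraries stand apart from the other 3 groups in all 5 panels. The uninduced lines differ from each other at an adjusted p below 0.05 for Cdkn1a, Myod1, Uts2, which had no luciferase count, and Spp1 (log2 0.13).

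Genes that were silent before induction came from several tissues. Ctsq, a placental cathepsin protease, had no count without DUX4 and stood at 13.6, 12.5 and 14.3 CPM with it, at least 202-fold higher when the uninduced libraries are set to a floor of 3 counts together. The same floor gave at least 125-fold for C8b, a complement component made in liver, 85.1-fold for the calmodulin-binding Pcp4 and 77.0-fold for Gad1, which makes the neurotransmitter GABA. It gave at least 68.2-fold for the neuronal calcium-binding Necab1, 47.7-fold for the meiotic gene Tex11 and 38.3-fold for the long noncoding RNA Tunar. Necab1 was not silent in the control clone, where it was at 9.36 CPM without and 8.23 CPM with doxycycline. Dcstamp, which encodes a membrane protein needed for osteoclast fusion, went from 2 counts in all to 3823, a ratio of 1928 (95% exact interval 533 to 15920, counting error only), at 93.0, 84.2 and 81.1 CPM.

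Other large rises began from a measurable level. P2rx3, an ATP-gated ion channel of sensory neurons, was at 1.13, 1.54 and 1.58 CPM without and 441, 434 and 438 CPM with DUX4. Its response exceeded the luciferase response by 7.16 log2 (adjusted p 3.9e-12), although P2rx3 also rose there, from 1.64 to 3.59 CPM. Wfdc3, a protease-inhibitor family member, rose from 2.13, 2.82 and 1.51 to 355, 339 and 344 CPM. Serpinb6c, a serine protease inhibitor of a gene cluster whose copies can share reads, rose by 7.84 log2 (SE 0.16) to 98.7 ± 2.04 CPM, and Fcgbp, an Fc-binding mucin-like protein, by 7.41 (SE 0.20). Rhag, an ammonium channel of red cells, reached 27.5, 25.5 and 26.9 CPM from 0.1251, 0.128 and 0 CPM, and Cacng4, a calcium channel subunit, 12.9, 14.7 and 12.9 CPM from 0.1251, 0 and 0.0754 CPM.

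In absolute terms the largest gain was in Ndrg1, a stress- and growth-arrest-related cytoplasmic protein. It was at 564, 579 and 542 CPM without and 7399, 7446 and 7375 CPM with DUX4. Doxycycline also raised Ndrg1 in the luciferase line, from 170, 180 and 175 to 411, 347 and 374 CPM, and the DUX4 response was larger by 2.61 log2 (SE 0.07, adjusted p 1.1e-15). Annexin A5 (Anxa5), a phosphatidylserine-binding protein, went from 589, 564 and 530 to 2277, 2236 and 2288 CPM. Lamp1, the main lysosomal membrane glycoprotein, went from 870, 870 and 876 to 2191, 2175 and 2163 CPM, and prosaposin (Psap), the precursor of lysosomal lipid-degrading cofactors, from 1372, 1400 and 1364 to 2965, 2911 and 2897 CPM. The luciferase line changed Lamp1 by 0.20 and Psap by 0.26 log2, and both DUX4 responses were larger at an adjusted p of 4.8e-10 or below.

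The largest falls included regulators of metabolism and secreted and receptor genes of mesenchymal cells. Insc, an adaptor that orients the mitotic spindle, fell from 15.5, 13.3 and 11.8 to 0.278, 0.198 and 0.134 CPM, and also fell in the luciferase line (log2 -2.46), from a lower level. Pdk4, the kinase that holds back pyruvate oxidation, fell from 50.3, 50.3 and 49.6 to 1.81, 2.18 and 1.27 CPM, and Olfml3, a secreted BMP-scaffold protein, from 67.1, 63.9 and 65.9 to 2.64, 2.18 and 2.54 CPM. The imprinted noncoding RNA H19 fell from 117, 117 and 118 to 5.01, 6.20 and 5.09 CPM. The uninduced luciferase clone held far more H19, 5079 ± 75.7 CPM, and fell to 3129 CPM. Pdgfrb, the PDGF receptor of mesenchymal and mural cells, fell from 341, 335 and 312 to 19.3, 17.2 and 21.8 CPM, while the luciferase libraries were at 230 CPM without and 240 CPM with doxycycline. Eps8, an actin-regulating adaptor, and Mgp, the matrix Gla protein that inhibits calcification, fell by 4.40 and by 4.14 on the log2 scale and rose in the luciferase line by 0.55 and 0.59.

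Genes of mitosis moved in 1 direction. All 69 tested members of the mitosis and G2/M list fell with DUX4, 53 of them 4-fold or more, with a median log2 fold change of -2.26, while the median of all genes was 0. The same 69 genes all fell in the luciferase line too, with a median of -2.40. The test of the difference found 22 higher and 15 lower with DUX4 than with luciferase. Cyclin B1 (Ccnb1), which drives entry into mitosis, went from 177, 182 and 184 to 23.5, 26.7 and 26.1 CPM with DUX4 and from 39.4, 39.1 and 42.7 to 4.73, 5.87 and 6.98 CPM with luciferase. Its responses of -2.83 (SE 0.09) and -2.78 differed by -0.05 (SE 0.16, adjusted p 0.817), which is within the error and does not show that they are alike.

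The starting levels of both clones differed. Summed over the mitosis list, the uninduced DUX4 libraries were at 9048, 9142 and 8847 CPM and the induced ones at 2237, 2384 and 2332 CPM. The uninduced luciferase libraries were at 2358, 2244 and 2391 CPM, about where the DUX4 line arrived after induction, and fell to 591, 630 and 658 CPM. In the mouse Dux line the sum went from 5895, 6315 and 6208 to 4461, 4753 and 4856 CPM. The replication sums were 5052, 5077 and 4981 CPM before and 2521, 2544 and 2527 CPM after DUX4, and 1351, 1337 and 1371 CPM before and 855, 842 and 845 CPM after luciferase induction, so that here the uninduced luciferase libraries lay below the induced DUX4 ones. In the mouse Dux line this sum was 2908, 3051 and 2973 CPM before and 3303, 3109 and 3150 CPM after induction, higher in each induced library while the mitosis sum was lower. Culture density was not given in the sources used here, and its part in these sums was not tested.

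**Figure D2:**
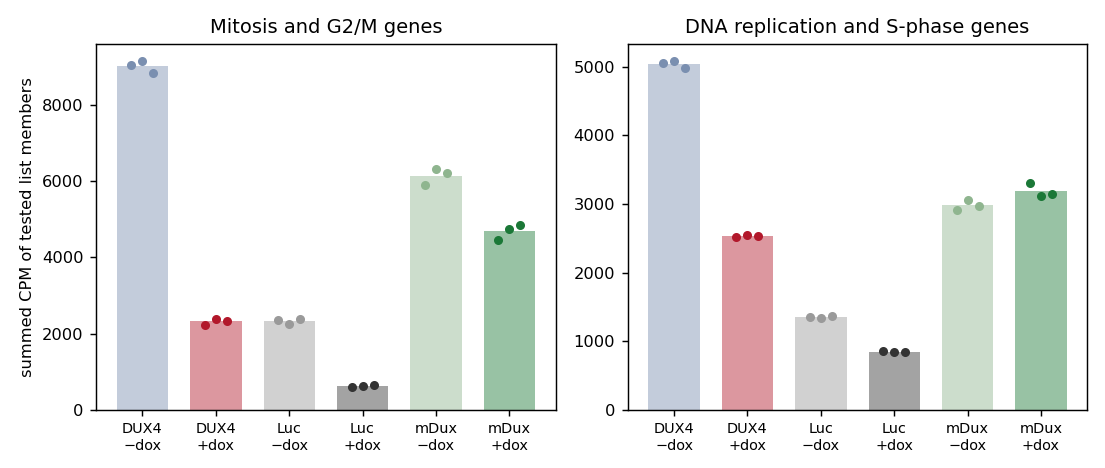
Summed CPM of the tested members of the mitosis list (left) and the replication list (right) in each library of the 3 lines (points; bars are means of 3, from 0). Both inducible lines with DUX4 and luciferase drop with doxycycline in the mitosis panel, and the uninduced luciferase libraries, at 2244 to 2391 CPM, lie at the level of the induced DUX4 libraries, at 2237 to 2384 CPM.

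Other mitotic genes repeated the pattern. Cdc20, the activator of the anaphase-promoting complex whose promoter stretch is shown above, went from 178 ± 3.19 to 30.8 ± 2.31 CPM (log2 -2.54 against -2.47 with luciferase), and Cdk1, the mitotic kinase, from 146 ± 4.85 to 31.6 ± 1.27 CPM (-2.21 against -1.96). The proliferation antigen Mki67 went from 460 ± 31.8 to 77.9 ± 10.1 CPM, and the centromeric histone Cenpa changed by -2.94 log2, against -2.2 in the luciferase line (adjusted p of the difference 2.0e-04). Top2a, the topoisomerase that untangles chromosomes, fell by 0.91 with DUX4 and by 2.73 with luciferase. Bub1, a spindle checkpoint kinase, fell by 0.42 with DUX4 and by 3.08 with luciferase, the largest gap in the list (2.66, adjusted p 4.5e-14). Top2a and Bub1 were named after their values were seen.

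In the DNA replication and S-phase list 60 of 63 tested genes fell, 14 of them 4-fold or more, with a median of -1.47 against -0.74 in the luciferase line. Here the DUX4 response was lower in 36 genes and higher in 9. The origin-licensing factor Cdc6 fell from 31.0, 31.3 and 31.4 to 3.06, 4.29 and 3.41 CPM, the helicase subunit Mcm5 from 168, 165 and 170 to 25.7, 27.9 and 22.9 CPM, and the transcription factor E2f2 by 3.30 log2 against 1.53 with luciferase. Cdc6 and Mcm5 also fell with luciferase, by 3.34 and 2.82 log2 against 3.11 and 2.72 with DUX4, and neither difference passed (adjusted p 0.676 and 0.590). Pcna, the sliding clamp of replication and repair, was the 1 member that rose, from 340, 336 and 340 to 622, 596 and 604 CPM, while it fell by 0.63 log2 in the luciferase line. In the homologous recombination and Fanconi list 31 of 39 fell, against 19 with luciferase, with medians of -0.99 and -0.33, and the DUX4 response was lower in 16 genes and higher in 6. Fancb fell by 2.68 log2 against 1.30 with luciferase (adjusted p of the difference 1.9e-04), and Fanca by 2.41 against 2.54, a difference that did not pass (adjusted p 0.746). The 4 that rose were Fancc (0.98), the nuclease subunit Mre11a (0.53), the DNA break sensor Parp1 (0.41) and the nuclease Mus81 (0.22), and all 4 were higher than in the luciferase line at an adjusted p of 0.0022 or below. They were named after their values were seen.

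Inhibitors of the cell cycle did not move together. Of 26 tested CDK inhibitors, D cyclins and RB family genes, 7 rose and 15 fell. Rb1, the retinoblastoma protein, rose from 93.0, 87.6 and 79.6 to 466, 473 and 477 CPM, without a called change with luciferase, and Cdkn1a rose as given above. Ccnd2 (cyclin D2) rose from 3.003, 3.46 and 3.24 to 19.1, 17.7 and 18.95 CPM, while Ccnd1 fell from 324 ± 1.61 to 182 ± 7.41 CPM. Cdkn1b (p27) rose by 0.51 log2, Cdkn2c (p18) fell by 1.52 and Rbl1 (p107) fell by 1.29.

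Among 47 tested p53 regulators and targets 28 rose and 13 fell, with a median of 0.44, against 19 and 8 with a median of 0.11 in the luciferase line. The stress kinase Plk3 rose from 20.1, 20.2 and 18.2 to 211, 216 and 200 CPM. Sesn3, an inhibitor of TORC1 signalling, rose from 17.9, 16.8 and 17.7 to 85.4, 83.6 and 84.4 CPM, cyclin G1 (Ccng1) by 1.29 and the RNA-binding Zmat3 by 1.09 log2. Gadd45g and Gadd45b, stress sensors of the same family, fell by 3.52 and 2.18 log2. Of 32 BCL2 family and caspase genes 13 rose and 9 fell, beside 34.4% and 33.1% of all tested genes. Bcl2l11 (BIM, a killer protein) rose from 11.5, 10.6 and 11.1 to 40.2, 40.3 and 40.2 CPM, Casp6 and Casp8 rose by 1.25 and 0.85 log2, and the survival genes Bcl2 and Cflar rose by 0.86 and 0.66. Bid, the caspase-8 substrate, fell from 64.4, 64.9 and 65.3 to 14.9, 13.9 and 15.3 CPM, and Pmaip1 (NOXA) fell by 0.94.

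The machinery that makes protein and the machinery that degrades it went in opposite directions. Of 76 cytosolic ribosomal protein genes, 71 fell and none rose, with a median of -0.48. In the luciferase line 4 rose (Rpl3, Rpl4, Rpl10 and Rpl13a, by 0.14 to 0.26) and none fell, with a median of 0.10, and the DUX4 response was lower in 69 of 76. Summed, the list went from 43811, 43196 and 44551 to 31659, 30971 and 30341 CPM with DUX4, and from 36889, 37614 and 38093 to 40678, 39513 and 40005 CPM with luciferase. Rpsa, a subunit that also serves as a laminin receptor, had the largest fall, from 1730, 1778 and 1733 to 864, 845 and 831 CPM. Because each library sums to a fixed total, these values are shares of the RNA counted, not amounts per cell.

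Of 55 Myc family and ribosome biogenesis genes 46 fell, with a median of -0.68 against -0.07 with luciferase. Myc itself fell from 32.6, 31.9 and 33.3 to 6.61, 7.13 and 7.36 CPM and was at 32.6 and 32.9 CPM in the luciferase groups. Spermidine synthase (Srm) fell by 2.09, the pyrimidine-synthesis enzyme Cad by 2.00 and the pseudouridine synthase dyskerin (Dkc1) by 1.60 log2. Mxd1, Mxi1 and Mxd4, which compete with Myc for its partner Max, rose by 1.58, 0.70 and 0.30. Mxd3, of the same family, went the other way and fell by 2.61, and by 3.21 with luciferase. Odc1, the first enzyme of polyamine synthesis, rose by 0.23, and the fifth riser, the rRNA-processing Ebna1bp2, by 0.14. The Ebna1bp2 call was lost, at 0.10 with library size alone, at 0.14 without a filter on low counts, at 0.12 without induced replicate 1, at 0.14 without induced replicate 2 and at 0.11 without uninduced replicate 1. Mxd4, Odc1 and Ebna1bp2 were named after their values were seen.

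Of 47 proteasome and ubiquitin genes 26 rose and 5 fell, with a median of 0.23. In the luciferase line 3 rose (Sqstm1, Nfe2l1 and Fbxo32) and 31 fell, with a median of -0.29. The DUX4 response was higher in 36 and lower in 3, Psme3 among them. The ATPase subunit Psmc2 went from 208, 192 and 198 to 343, 362 and 346 CPM with DUX4 and from 156, 161 and 163 to 122, 127 and 124 CPM with luciferase. The activator Psme4 rose by 1.03, the ubiquitin gene Ubb by 0.74 and the lid subunit Psmd11 by 0.71. Among the genes that fell were Psme2 (-0.38), Psme3 (-0.27) and Ube2d2a (-0.22), named after their values were seen, and 8 fell when both mouse Dux libraries of replicate 1 were left out.

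**Figure D3:**
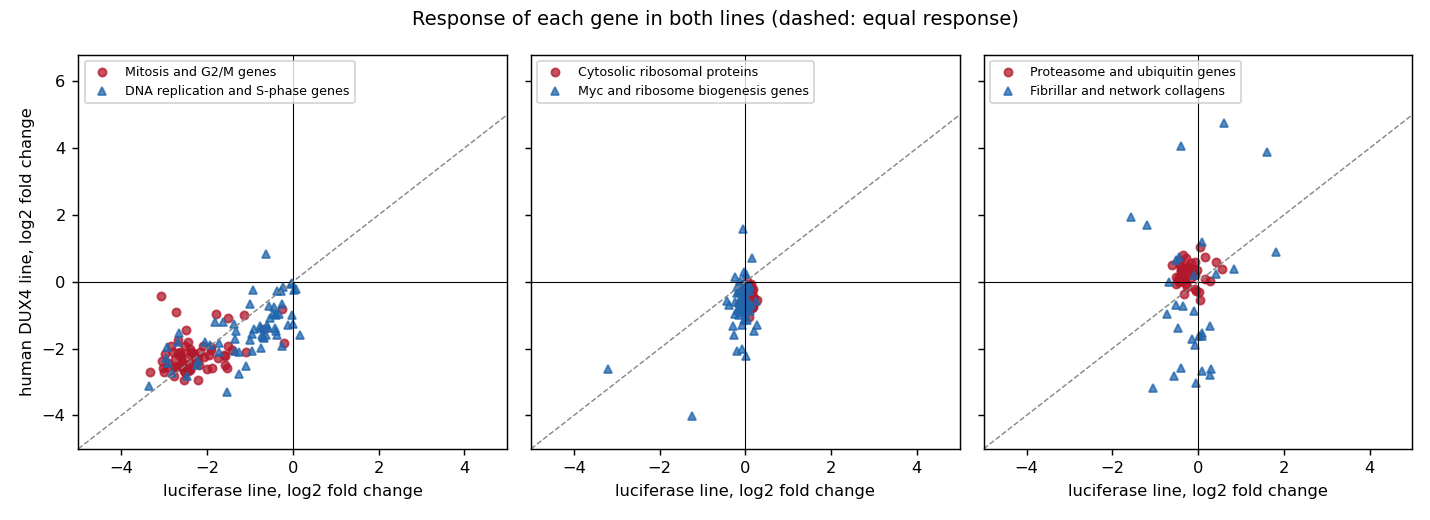
Each point is a tested gene, by its log2 fold change in the luciferase line (horizontal) and in the human DUX4 line (vertical), and the dashed line marks an equal response. Mitosis genes lie around the dashed line with medians of -2.40 and -2.26, ribosomal protein genes lie mostly below 0 in the DUX4 line, with medians of 0.10 and -0.48, and proteasome genes lie mostly above the dashed line.

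The extracellular matrix was remodelled in both directions. Of 31 collagen genes 16 fell and 8 rose, with a median of -0.89 against -0.10 in the luciferase line, and 15 were lower and 6 higher than with luciferase. Col1a2, a chain of the fibrillar collagen of tendon and bone, fell from 2415, 2361 and 2359 to 257, 267 and 267 CPM. Col1a2 also fell with luciferase, from 565 ± 24.1 to 273 ± 7.75 CPM, by 1.05 log2 against 3.17 with DUX4. With DUX4 its partner Col1a1 fell by 2.59 log2. Col3a1 fell from 3561, 3378 and 3366 to 1062, 1131 and 1185 CPM, whereas the luciferase libraries stood at 8220 ± 83.6 without and 8696 ± 116 CPM with doxycycline. Col6a1 and Col6a2, chains of the beaded collagen around muscle fibres, fell by 2.78 and 2.60 log2 and rose by 0.28 and 0.30 with luciferase.

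Among the collagens that rose, Col24a1, a minor fibrillar collagen, went from 0.751, 0.833 and 0.679 to 19.9, 20.6 and 21.0 CPM, Col11a1, the cartilage fibril collagen, from 22.0, 20.3 and 19.6 to 77.4, 76.8 and 81.4 CPM, and the transmembrane Col23a1 by 4.07 log2. Col12a1, which coats fibrils, rose from 1146 ± 86.7 to 1920 ± 101 CPM. Of basement membrane genes, which were not counted as a list, the linker protein nidogen-1 (Nid1) rose from 864, 849 and 798 to 3005, 3106 and 3131 CPM, and nidogen-2 (Nid2) from 270, 269 and 277 to 654, 655 and 691 CPM. Lama2, the laminin chain of muscle basement membrane, rose from 53.2, 52.96 and 49.3 to 208, 223 and 227 CPM, and Lamc1 by 0.52 log2. Each of these 4 was higher than in the luciferase line, at an adjusted p of 0.035 or below. They are examples that rose, and how many other basement membrane genes rose or fell was not counted.

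Of 49 proteoglycan and matrix glycoprotein genes 30 fell and 10 rose, with a median of -0.75 against 0.07 with luciferase, and 31 were lower and 10 higher. Fibronectin (Fn1), the main adhesive protein of the matrix, fell from 2571, 2364 and 2187 to 566, 566 and 612 CPM, and thrombospondin-1 (Thbs1) from 2303, 2217 and 2167 to 494, 528 and 541 CPM. Thbs1 also fell with luciferase, by 0.77 log2. Fn1 was higher there in each induced library, at 9760, 9844 and 9405 CPM without and 12720, 12330 and 12720 CPM with doxycycline. That change was not called (log2 0.38, SE 0.19, adjusted p 0.139). The SE uses the spread shared by all lines, and the induced mouse Dux libraries held 881, 1882 and 1900 CPM of Fn1. With DUX4 osteoglycin (Ogn) fell by 3.44 and fibulin-1 (Fbln1) by 3.70 log2. Of 30 collagen-processing genes 18 fell, including the crosslinking enzyme Loxl1 (-2.67), the procollagen protease enhancer Pcolce (-2.32) and the collagen chaperone Serpinh1 (-1.54). Plod2, which hydroxylates the ends of collagen for crosslinking, rose from 240, 232 and 229 to 1064, 1039 and 1087 CPM and fell by 0.36 log2 with luciferase.

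Of 36 matrix proteases and inhibitors 15 rose and 17 fell, beside 34.4% and 33.1% of all tested genes. Mmp9, a gelatinase, rose from 1.19, 0.898 and 0.905 to 56.6, 60.1 and 54.2 CPM, and Mmp17, a membrane-anchored protease, from 19.3, 22.2 and 20.6 to 357, 352 and 357 CPM. Both had group means below 1 CPM in the luciferase line. Of the protease inhibitors, Timp1 rose by 0.78 and Timp2 fell by 1.08 log2. Of 38 integrin, junction and adhesion genes 18 fell and 8 rose. Vcam1, an adhesion molecule of myoblasts, fell from 34.6, 39.2 and 36.1 to 5.29, 5.48 and 5.89 CPM and the gap junction protein Gja1 by 1.97 log2, while both rose in the luciferase line by 0.65 and 1.19. Alcam rose by 1.76 and the collagen-binding integrin Itga1 by 3.26 log2.

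**Figure D4:**
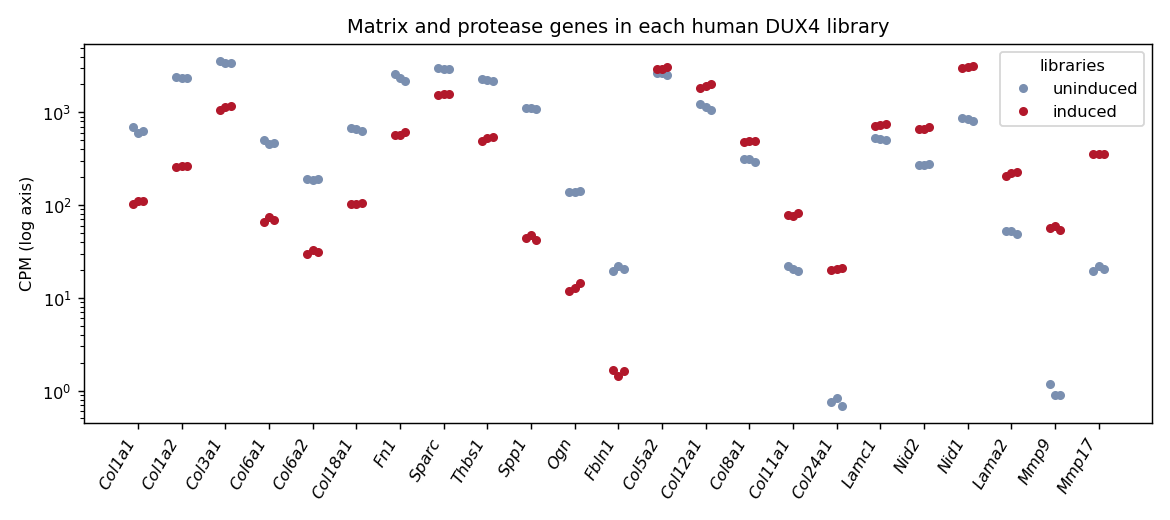
CPM of 23 matrix and protease genes in each human DUX4 library (points, logarithmic axis), uninduced and induced. The collagens and glycoproteins on the left drop, Col1a2 from 2359 to 2415 down to 257 to 267 CPM, while the minor collagens, nidogens, laminins and both proteases on the right rise. For Col5a2, on the right, the call was lost with library size alone (log2 0.16) and without induced or uninduced replicate 3 (0.17 each).

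Of 38 myogenic regulators 13 rose and 13 fell, shares near the 34.4% and 33.1% of all tested genes, against 7 and 16 with luciferase, with medians of -0.25 and -0.20. Beside Myod1, Myog fell from 1.24 ± 0.317 to 0.426 ± 0.0679 CPM. Eya1, a transcriptional coactivator that acts upstream of Myod1 in the embryo, rose from 35.4, 37.1 and 35.4 to 240, 235 and 234 CPM. The surface receptor Cdon, which promotes myogenesis, rose by 0.98. Both were higher than in the luciferase line at an adjusted p of 3.4e-08 or below.

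The acetylcholine receptor subunits parted. Chrnd rose from 21.0, 23.5 and 21.4 to 167, 165 and 173 CPM while it fell in the luciferase line from 39.5, 42.4 and 37.8 to 26.1, 25.5 and 25.8 CPM. The fetal subunit Chrng rose from 8.26, 7.18 and 8.37 to 30.7, 34.4 and 35.3 CPM and Chrna1 from 366, 357 and 367 to 853, 828 and 840 CPM, both falling with luciferase, by 0.69 and 0.35 log2. Chrnb1 fell from 27.9, 30.3 and 28.1 to 16.1, 15.2 and 14.5 CPM, a log2 fold change of -0.92 against -0.81 with luciferase. Over the 23 tested receptor and neuromuscular junction genes 9 rose and 9 fell, beside 34.4% and 33.1% of all tested genes. The neuregulin receptor Erbb3 rose by 2.65 and its nuclear effector Etv5 by 2.94 log2, the agrin receptor Lrp4 fell by 1.13, and Dok7, the activator of the receptor kinase of the junction, fell by 3.25.

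Of 44 sarcomere genes 14 fell and 8 rose, against 35 and 1 (Myom2) with luciferase. Among all tested genes 33.1% fell and 34.4% rose with DUX4. In the list the DUX4 response was higher than the luciferase response in 13 and lower in 7. Nrap, an anchor protein of forming myofibrils, rose from 0.313, 0.513 and 0.377 to 57.8, 61.5 and 60.7 CPM. In the luciferase line it fell from 23.4, 21.5 and 22.1 to 11.1, 12.9 and 10.7 CPM. The Z-disc crosslinker Actn2 had no count without DUX4 and was at least 21.5-fold higher with it, at 0.990 to 1.95 CPM. The slow troponin Tnni1, troponin Tnnc1 and the myosin light chain Myl1 rose by 1.59, 1.55 and 1.30 log2 and fell with luciferase. Tnnt2, the cardiac-type troponin of immature muscle, fell from 54.1, 52.4 and 50.8 to 2.99, 2.31 and 2.61 CPM, skeletal actin (Acta1) by 2.56 and tropomyosin (Tpm1) by 1.78. Tnnt2 fell by 4.31 log2 with DUX4 and by 1.10 with luciferase. Of 23 excitation-contraction genes 11 rose and 5 fell, with the calcium sensor Stim1 up by 1.85. The 5 that fell were Stac3, from below 1 CPM, junctophilin Jph2 (-1.98), Jsrp1 (-1.55), Cacng1 (-0.76) and Asph (-0.58), and each was also lower than with luciferase.

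Signalling genes showed ligand, receptor and target moving apart. In the Wnt list 22 of 42 fell and 12 rose, with a median of -0.48. The ligands Wnt10b and Wnt10a fell from 46.2, 47.4 and 43.8 to 5.15, 4.42 and 5.76 CPM and from 103 ± 4.996 to 22.1 ± 1.45 CPM, and the nuclear effector Tcf7 fell by 2.11. The inhibitors Dkk2 and Sfrp4 rose from 2.50, 1.67 and 2.41 to 55.2, 53.2 and 52.6 CPM and from 5.76, 6.67 and 7.24 to 69.9, 59.7 and 59.99 CPM. Rspo3 and its receptor Lgr5, which strengthen Wnt signals, rose by 5.19 and 3.25 log2. Dkk2 also rose by 1.06 with luciferase, less than with DUX4 (adjusted p 4.3e-15).

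In the Notch list 13 of 25 fell and 6 rose. The receptors Notch1, Notch2 and Notch3 fell by 1.75, 1.03 and 1.35 log2, the target Hes1 by 1.37 and the glycosyltransferase Lfng by 1.87. The target Hey1 rose from 5.01, 3.59 and 4.45 to 90.3, 86.1 and 89.3 CPM and the ligand Dll1 by 1.62. In the TGF-beta and BMP list 24 of 48 fell and 13 rose. The receptor Tgfbr2 and the signal transducer Smad3 fell by 1.55 and 1.90 log2, without a called fall in the luciferase line, and the smooth-muscle-type target Acta2 fell from 1550, 1500 and 1567 to 257, 253 and 254 CPM, with a smaller fall of 1.17 there. Bmp2 had no count without DUX4 and was at least 21.5-fold higher with it, and the BMP antagonist Chrdl1 rose by 3.61.

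Of 72 growth factor and receptor genes 26 rose and 26 fell, again near the shares of all tested genes (34.4% and 33.1%). Ret, the receptor of GDNF-family ligands, rose from 29.9, 31.8 and 26.9 to 355, 355 and 362 CPM, and Igf2r, which carries enzymes to lysosomes and removes IGF2, from 11.8, 9.62 and 12.1 to 86.1, 93.7 and 90.9 CPM. Igf1 fell by 1.73 log2. Of 42 immediate early genes and feedback phosphatases 22 fell and 14 rose with DUX4, against 7 and 16 with luciferase. Egr3 fell from 18.3, 18.2 and 19.01 to 1.74, 0.594 and 1.41 CPM, and Egr1, Egr2 and Junb fell by 1.73, 2.74 and 1.53 log2. All 4 rose in the luciferase line, and the 4 differences passed at an adjusted p of 8.7e-11 or below. Klf4 rose in both lines, by 1.31 and 1.25, and the phosphatase gene Dusp2 rose by 3.14.

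Interferon-stimulated and antigen presentation genes rose more often than they fell, 26 against 7 of 51, 8 of them 4-fold or more, with a median of 0.37, while 4 rose and 4 fell with luciferase. Levels were low. Ifit3, an antiviral RNA-binding protein, rose from 0.563, 0.833 and 0.604 to 10.0, 8.78 and 11.7 CPM, and Oasl2 from 1.88, 2.37 and 2.26 to 12.9, 12.3 and 11.8 CPM. Oas1a, an RNA sensor, went from 1 to 113 counts in 3 libraries, a ratio of 114 (95% exact interval 20 to 4541), and Mx1, an antiviral GTPase, from 1 to 35 (35.3, interval 5.93 to 1434). The copies of the Oas1 and Ifit3 clusters can share reads, so the split between copies is uncertain. The luciferase risers were Nlrc5, H2-T23, Irf9 and Ifi203, and the luciferase fallers H2-K1, Ifi27, Tapbp and Ifit2, by 0.22 to 1.22 log2. Ifi204, a DNA sensor, fell by 2.00 log2.

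Of 37 cytokine genes 12 rose and 13 fell, near the 34.4% and 33.1% of all tested genes, against 16 and 2 with luciferase. Il6 rose from 0.1251, 0.128 and 0.0754 to 7.45, 6.73 and 7.498 CPM and the prostaglandin synthase Ptgs2 from 45.7, 46.1 and 42.6 to 679, 710 and 665 CPM. The chemokine Cxcl12 fell from 32.8, 34.4 and 34.6 to 3.55, 3.70 and 3.01 CPM and rose by 1.38 log2 with luciferase, and the oncostatin receptor Osmr and its feedback inhibitor Socs3 fell by 1.63 and 1.97 and rose there by 0.96 and 0.79.

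Of 55 unfolded protein and integrated stress response genes 23 rose and 21 fell with DUX4, with a median of -0.04. Among all tested genes 34.4% rose and 33.1% fell. With luciferase 35 of the list rose and 9 fell, with a median of 0.37. The DUX4 response was lower in 29 and higher in 7. The chaperone Hspa5 (BiP) fell from 1091 ± 5.11 to 695 ± 10.2 CPM. Trib3, Chac1 and Slc7a5, targets of ATF4, rose by 2.57, 1.21 and 1.07 log2 with DUX4 and by 2.25, 1.59 and 0.86 with luciferase, and none of the 3 differences passed (adjusted p 0.10 to 0.24). Atf3 rose from 0.751, 0.577 and 0.604 to 21.2, 19.8 and 20.6 CPM, beyond the luciferase response by 3.47 (adjusted p 1.8e-08). In the heat shock list 12 of 41 rose and 20 fell, against 2 and 24 with luciferase, and the DUX4 response was higher in 15 and lower in 15, with the HSP110-family Hspa4l up from 106, 107 and 103 to 425, 427 and 438 CPM and the co-chaperone Bag3 up by 1.65.

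Cholesterol genes fell in both lines. Of 32 genes of cholesterol synthesis and transport 23 fell and 5 rose with DUX4, against 25 and 5 with luciferase, with medians of -0.66 and -0.83, and the DUX4 response was higher in 20 and lower in 8. Fdps, which makes the farnesyl precursor of sterols, fell from 424 ± 4.68 to 197 ± 3.87 CPM, by 1.11 log2 against 1.88 with luciferase. Those that rose were the lysosomal cholesterol exporter Npc1 (1.73), the cell-surface exporters Abca1 (2.36) and Abcg1 (1.63), from below 1 CPM, Mylip (1.02), which degrades the LDL receptor, and the synthesis gene Tm7sf2 (0.27). The Tm7sf2 call was lost without induced replicate 1 or 2 (0.24) or uninduced replicate 3 (0.21). Npc1, Abca1, Abcg1 and Mylip also rose with luciferase. Of 46 glycolysis and hypoxia genes 19 rose and 19 fell, beside 34.4% and 33.1% of all tested genes. Pfkfb3, the activator of glycolytic flux, rose from 8.13, 7.57 and 8.83 to 77.2, 83.5 and 80.6 CPM and hexokinase-2 (Hk2) by 2.34, while phosphoglycerate kinase (Pgk1) fell by 0.86 and Vegfa by 1.71. Among 64 respiratory chain and citrate cycle genes 14 rose and 23 fell, against 1 (Cox6a2) and 40 with luciferase. Ndufa4 rose from 194, 196 and 199 to 507, 483 and 481 CPM and the ATP synthase subunit Atp5o by 1.04, both falling with luciferase. Of 43 fatty acid genes 10 rose, among them the acyl-CoA synthetase Acsl1 (2.11), and 22 fell, among them the desaturase Fads2 (-1.82).

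In the list of chromatin regulators and repressors 37 of 62 fell and 13 rose, with the maintenance methylation factor Uhrf1 down from 193, 196 and 188 to 37.1, 38.7 and 36.3 CPM and the remodeller Hells down by 2.23 log2. Uhrf1 had a log2 change of -2.36 with DUX4 and of -2.204 with luciferase, a difference that did not pass (adjusted p 0.334), and Hells by 2.23 against 0.87 (adjusted p of the difference 6.0e-08). The histone demethylase Kdm1a and the de novo methyltransferase Dnmt3a rose by 1.21 and 1.30. Hmga2, an architectural protein of growing mesenchymal cells, fell from 28.0, 27.3 and 30.3 to 2.64, 3.17 and 1.74 CPM and rose by 1.46 log2 with luciferase. Of 50 genes of RNA decay and splicing 29 fell and 10 rose. Mbnl1 and Mbnl3 fell by 1.31 and 1.90 and their relative Mbnl2 rose by 1.24, and the splicing kinase Clk2 rose by 1.48. Of 55 homeobox genes 17 rose and 21 fell, shares near those of all tested genes (34.4% and 33.1%), with Otx1 up by 1.95, Dlx3 down by 2.60 and Hoxb9 at least 9.75-fold higher from no count.

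The cleavage-stage list holds mouse counterparts of human DUX4 target genes, among them Tmem92. Of its 28 tested genes 14 rose and 1 fell, beside 34.4% and 33.1% of all tested genes. The median was 1.78, or 1.01 when genes without an uninduced count are set to their bound. Some members passed the count filter only through the mouse Dux libraries. Zfp352 and Tdpoz4, both counted as risers, had 6 counts each with DUX4, against 1512 and 3481 with induced mouse Dux. Only 9 list members rose when the 6 DUX4 libraries were fitted alone, and 7 were higher than with luciferase. Pramef25 rose from 0.501, 0.449 and 0.604 to 80.4, 78.2 and 73.4 CPM. Usp17lb and Trim43b rose to 0.520 ± 0.183 and 1.26 ± 0.323 CPM, and Zscan4a was at 1.37 ± 0.190 without and 1.94 ± 0.249 CPM with DUX4 (adjusted p 0.050). The translation factor Eif1a was the 1 that fell, by 0.88. These families have near-identical copies that can share reads. Usp17lb, Trim43b, Zscan4a and Eif1a were named after their values were seen.

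Markers of other cell types were read from lists in which many members had no count. Of 32 immune genes 6 could be tested, and 17 had no count in any DUX4 library, among them Ptprc, Tyrobp, Aif1 and C1qa. The 3 that rose were Cd68 (from 1.69, 1.80 and 1.74 to 20.5, 22.6 and 19.4 CPM), the macrophage receptor Csf1r (by 2.44 log2) and the integrin Itgam (1 count against 91, ratio 91.8, interval 16.1 to 3664). Cd14 fell by 0.44. The list summed to 19.6 to 20.9 CPM without and 46.3 to 49.0 CPM with DUX4. Of 41 epithelial and hepatic genes 10 could be tested and 19 had no count, Epcam and albumin (Alb) among them, and the sum was 16.8 to 18.01 and 15.6 to 16.2 CPM. C8b, the splicing factor Esrp1 (1 count against 169, ratio 170, interval 30.2 to 6771) and Elf3 rose and Krt14 fell. Of 50 trophoblast genes 12 could be tested and 20 had no count, and of those tested 8 rose and 3 fell. The list summed to 142 to 149.5 CPM without and 73.4 to 80.6 CPM with DUX4. Among them Eomes rose from 0.0626, 0 and 0.0754 to 5.50, 5.02 and 4.49 CPM, Gata3 and Tfap2c rose by 2.03 and 2.91 log2, and the imprinted Peg10 fell from 113 ± 4.43 to 15.2 ± 1.72 CPM. Gata2 fell by 1.48, and Slc2a3 fell from below 1 CPM. With no filter on low counts 5 trophoblast genes fell. Against luciferase Rhox5 and Gata3 were higher and Peg10, Gata2 and Slc2a3 lower, and Eomes did not pass (adjusted p 0.152).

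Of 56 neuronal genes 28 could be tested, and 9 rose and 6 fell with a median of 0, at a summed 439 to 466 CPM without and 383 to 388 CPM with DUX4. In the endothelial and mural list 9 of 15 fell and Sox18 rose (2.23), with Pdgfrb, Cspg4 (-2.43) and the contractile Cnn1 (-3.98) among the falls, and the sum went from 2716 to 2780 CPM down to 589 to 597 CPM. In the fat, bone and cartilage list 4 of 14 fell, Spp1, the tendon factor Scx (-1.83), Runx2 (-1.34) and Cebpa (-1.37), and 2 rose, Lpl (1.49) and Pparg (1.41). Runx2 and Cebpa were named after their values were seen. In the housekeeping list 10 of 20 rose and 10 fell with a median of -0.08, among them Rab7 (0.84), the transferrin receptor Tfrc (-1.77) and Rplp0 (-0.74).

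**Figure D5:**
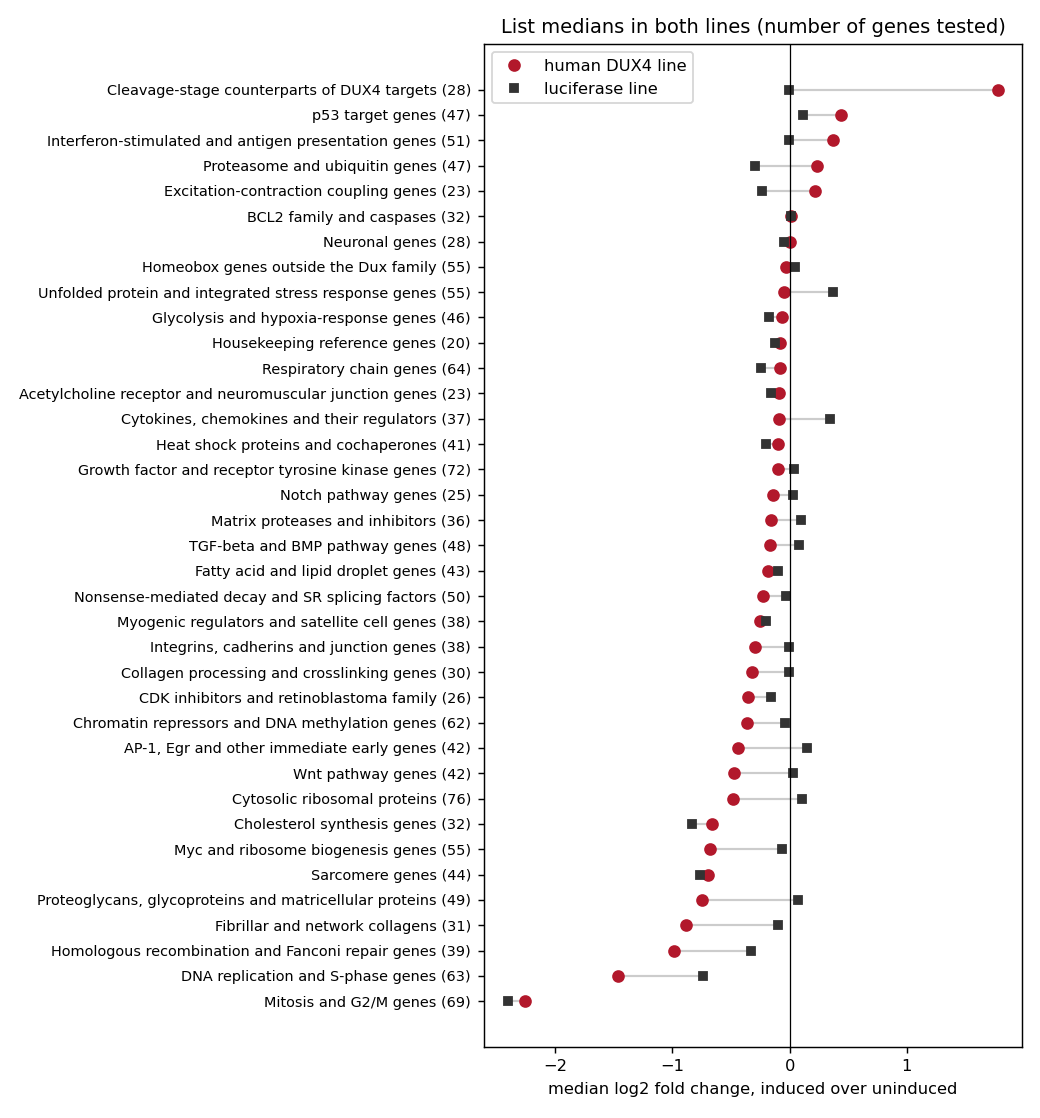
Median log2 fold change of each gene list with at least 20 tested genes (number in brackets) in the human DUX4 line (circles) and in the luciferase line (squares). The mitosis list lies far to the left in both lines at -2.26 and -2.40, while the ribosomal protein, Myc and collagen lists are to the left in the DUX4 line alone.

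Both lines are single clones, and the agreement between their responses was low across genes. The 2 log2 fold changes had a Spearman correlation of 0.19 and a Pearson correlation of 0.18 over the 13602 genes, which share libraries and are not independent replicates. Called changes went the same way in 2213 genes, and 1082 genes were called in opposite directions with a called difference. Beside mouse Dux, the response to human DUX4 was higher in 32.3% of tested genes and lower in 32.9%, that is 4397 and 4471 genes. Scaling by library size alone gave 5582 and 3538, which moved the all-gene median by 0.19, and leaving out both mouse Dux libraries of replicate 1 gave 4579 and 4860. Among the 593 strongly higher genes 323 were higher and 39 lower than with mouse Dux, and among the 521 strongly lower genes 429 were lower and 8 higher. Both sets were picked by their change with DUX4, which is a term of this difference. The direction of the split in them is therefore largely set by the choice. Cdkn1a was at a log2 fold change of 2.69 with human DUX4 and -1.47 with mouse Dux, and Spp1 at -4.63 and 2.17. Both differences passed at an adjusted p of 3.5e-19 or below.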

How the data were processed

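The deposited table gives raw read counts per gene for 18 libraries, and the authors made it from poly(A) RNA libraries (TruSeq, per the labels' protocols). CASAVA, TopHat2 2.0.12, Bowtie2 2.2.3 and the mm10 build are named in the submitters' processing notes. The counting program, gene annotation and strand use are not known from the labels or notes. Reads of overlapping or near-identical genes may therefore be split between them. Of 24028 genes in the deposited count table, 5017 had no count, and 23968 (99.75%) were matched by gene ID to RefSeq for positions and promoters. A total of 27 symbols that a spreadsheet had turned into dates were restored by gene ID.

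From these counts, 13602 genes passed filterByExpr (edgeR 4.0.16, R 4.3.3, minimum count 10), were scaled by TMM and fitted with 6 group means over all 18 libraries, which share 1 estimate of the spread (biological coefficient of variation 6.25%). Quasi-likelihood F tests were two-sided and Benjamini-Hochberg adjusted over all 13602 genes, with calls at an adjusted p below 0.05 and strong changes at 4-fold or more. Differences between the DUX4 and the luciferase or mouse Dux response were interaction contrasts in the same model. SEs of log2 fold changes were taken from the F statistics (absolute change over root F). Folds against no count use a floor of 3 counts over the group, and ratios from 1 to 3 counts have 95% exact (Clopper-Pearson) intervals. Intervals and floors cover counting error only. The p-values measure the spread between cultures within a clone, pooled over the clones of all 18 libraries, and not the spread between clones. The fit was tested on simulated data with known changes.

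Named genes were the markers, the 12 largest rises and falls at 10 CPM or more, the 8 largest gains and losses of CPM, the 8 genes with most counts from none, the 4 called members with the largest change in each list, and members that define a list. Genes named to complete a count of 5 or fewer were chosen after their values were seen. A few genes that this rule names are not reported here. Genes, lists and markers were chosen with earlier results of these data known, and lists are described by counts and medians with no set test. Alternatives were median-of-ratios scaling, DESeq2 1.42.0, library size alone, other filters, a replicate block, the 6 DUX4 libraries alone and leaving out each library. The pool and lane of each library were not given in the sources used here.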

Additional observations from a re-analysis of the deposited data

Results flagged for a closer look

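The change with human DUX4 differed from the change with luciferase, by the interaction test, in 7487 genes: 3856 were higher and 3631 lower. Against mouse Dux 4397 were higher and 4471 lower. Among the genes picked by the naming rule, 20 were called in opposite directions in the DUX4 and luciferase lines with a called difference, given here as the log2 response to DUX4 minus the log2 response to luciferase. Higher with DUX4 were Nrap (8.15), Chrnd (3.57), Plod2 (2.55), Hspa4l (2.44), Ndufa4 (1.72), Atp5o (1.32), Psmc2 (1.18) and Psmd11 (0.99). Pdgfd had a fitted difference of 6.08, which is no bound because no uninduced DUX4 library held a count, and it was at least 6.72-fold higher with DUX4. Lower with DUX4 were Spp1 (-4.97), Hmga2 (-4.96), Eps8 (-4.96), Egr3 (-4.89), Mgp (-4.73), Cxcl12 (-4.69), Vcam1 (-3.37), Slc2a3 (-3.31), Dlx3 (-3.28), Ptprv (-3.22) and Ddit4 (-1.63). Slc2a3 was near 0 in the DUX4 line, at 0.0696, 0 and 0 CPM with and 0.188, 0.192 and 0.302 CPM without DUX4, against 12.7 and 16.7 CPM in the luciferase groups. Other list members that the text describes, such as Egr1, Egr2, Junb, Pcna, Chrng, Osmr and Socs3, were also called in opposite directions, with their values given there.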

How the results depend on the processing

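The DUX4 call counts, 4683 higher and 4508 lower, kept their size within 1.5 times under every alternative run. They were 4790 and 4377 with median-of-ratios size factors, 4359 and 4806 with library size alone, 4731 and 4546 without a filter, 4608 and 4432 with a stricter filter, 4708 and 4313 with DESeq2, and 4835 and 4861 with the 6 DUX4 libraries alone. Leaving out 1 DUX4 library at a time gave 4409 to 4454 higher and 4273 to 4320 lower. Same-numbered DUX4 libraries had deviations correlated at -0.07, 0.03 and -0.07, luciferase libraries at -0.01, 0.05 and 0.03, and mouse Dux libraries at 0.57, 0.37 and 0.33, where libraries numbered 2 and 3 also correlated with each other (0.36 and 0.33). By a bound of 0.1 for every pair, the numbers paired the mouse Dux libraries alone. A replicate block gave 4690 and 4527. The counts of genes higher and lower than with luciferase, 3856 and 3631, were 3483 and 3988 with library size alone and 4094 and 3387 with median-of-ratios size factors, and 3863 and 3623 with the replicate block. Against mouse Dux the replicate block gave 4418 and 4452. Leaving out each luciferase library, or both mouse Dux libraries of replicate 1, was chosen after seeing the data. The first gave 3643 to 3693 genes higher and 3422 to 3493 lower than with luciferase. The second gave 4884 higher and 5218 lower genes with DUX4, and 4226 higher and 4445 lower than with luciferase. No followed gene changed direction, and 16 of 346 genes lost a call in some setting. The promoter groups of cell cycle lists were also chosen after seeing the data.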

Other observations

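Genes of the lysosome were gathered into a list after the rises of Psap, Lamp1, Npc1 and Cd68 had been seen, so the list's direction is partly set by its choice. Of 63 tested genes 47 rose with human DUX4 and 5 fell, and their median on the log2 scale was 0.64. In the luciferase line 32 rose and 1 fell, with a median of 0.19, and the DUX4 response was higher in 40 genes and lower in 10. Among subunits of the proton pump that acidifies the lysosome, Atp6v1e1 rose by 1.61 (75.1 ± 2.12 to 230 ± 4.61 CPM) and Atp6v1a by 1.00. The proteases Ctsd and Ctsb rose by 0.83 and 0.76, and the sorting receptors Sort1 and Igf2r by 2.10 and 3.02. Mitf, a transcription factor of the family that controls lysosomal genes, rose by 1.38, while its relative Tfe3 fell by 0.36. The other genes that fell were Cd63 (-1.11), Npc2 (-0.46), Galns (-0.41) and Ppt1 (-0.31).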
